A study of Homo sapiens with 8 samples.

Results

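The glycolysis and hypoxia response genes are 39 human genes chosen by symbol: 4 glucose and lactate transporters, 17 glycolytic enzymes, 4 regulators of glycolytic flux, 4 genes of the hypoxia-inducible factor (HIF) system and 10 other HIF targets. All 39 were found by Ensembl identifier among the 60676 rows of the count matrix. Of these, 37 passed the filter on low counts and were tested among 16680 genes. The other 2, SLC16A1 and CA9, had too few reads to be tested.

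Glycolysis turns glucose into pyruvate and, through lactate dehydrogenase, into lactate, and many tumors rely on it even when oxygen is present. The alpha subunits of HIF are hydroxylated by EGLN prolyl hydroxylases and degraded while oxygen is available. When oxygen is low they accumulate, pair with ARNT and bind short DNA elements, raising transcription of glucose transporters, most glycolytic enzymes, PDK1 and angiogenic factors. In neuroblastoma (NB), EPAS1, which encodes HIF-2 alpha, has also been studied as a marker of the sympathetic lineage.

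Aggregates of the human NB line IGR-N91 were formed in hanging drops and sequenced as 8 RNA-seq libraries, 2 in each of 4 groups. One group was kept in control medium, and the others in medium that dissected embryonic ganglia had conditioned for 48 h: chick sympathetic ganglia at embryonic day 8 (E8-cSGcm), chick dorsal root ganglia at the same day (E8-cDRGcm) or mouse sympathetic ganglia at the embryonic day in the group's name (E15.5-mSGcm). The comparisons ask how NB cells respond to factors released by these tissues. The labels and the methods state an exposure of 20 h, and the study's results text states 24 h. Species and embryonic day differ together between the mouse and chick media, and ganglion type as well against E8-cDRGcm, so their parts cannot be told apart. IGR-N91 is a single line, and nothing in the labels says that the libraries of a group came from separate cultures. The p-values therefore measure the spread between these libraries, which may be technical. No oxygen, glucose or lactate measurement was used here.

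Libraries held 7930765 to 15060744 counts, with the lowest 2 totals in E15.5-mSGcm. A count of 3, taken as the smallest amount a library can show, corresponded to 0.199 to 0.378 CPM (counts scaled to a library total of 1000000). These limits cover counting error only, since reads are not independent molecules. CPM values below are scaled by TMM, a method that balances library composition. Noradrenergic markers were abundant in all libraries, at 4642 to 8139 CPM summed over 12 genes, of which only CHGA was listed at 0. Their sum was lower in each conditioned medium (5784 to 6129 CPM in E8-cSGcm, 4642 to 4711 in E8-cDRGcm and 4941 to 5119 in E15.5-mSGcm) than in control medium (8010 to 8139). MYCN alone had 4679 and 4610 CPM in control medium and 2433 to 3496 in the conditioned libraries. By the calls defined below, 4, 7 and 5 of 11 tested markers were lower in the order of these media, and 0 higher. Among all tested genes 3.86%, 10.9% and 7.27% were lower. HAND2 overlapped control medium in both chick media, and DBH had 48.43 and 55.18 CPM in E15.5-mSGcm against 37.85 and 37.15 in control medium. The part of these differences in the results below was not tested.

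Few members passed the test in any medium. Calls needed 1.5-fold or more together with an adjusted p below 0.05 (edgeR quasi-likelihood test, Benjamini-Hochberg over all tested genes). In E8-cSGcm, 3 of 37 members were upregulated (8.11%, against 4.73% of all tested genes) and 1 downregulated (2.7% against 3.86%). E8-cDRGcm upregulated 6 (16.2% against 9.81%) and downregulated 3 (8.11% against 10.9%). In E15.5-mSGcm, 0 were upregulated (6.65% of all genes) and 4 downregulated (10.8% against 7.27%). For that count of 0, edgeR gave 13 members with a higher level at an unadjusted p under 0.05, none of them at 1.5-fold, and DESeq2 also called 0. Without E15.5-mSGcm 1 the count was 3 (ADM at log2 0.78, KDM3A at 0.61 and ALDOC at 0.59), and without E8-cDRGcm 1 it was 1 (KDM3A at 0.59). With 37 members these shares differ from the background by a few genes. The 3 comparisons share the same 2 control libraries and are not independent of each other.

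Across the 37 tested members, the median log2 fold change was 0.14 in E8-cSGcm, 0.25 in E8-cDRGcm and -0.01 in E15.5-mSGcm, beside 0.01, 0.01 and -0.02 for all tested genes. By adjusted p alone, with no fold limit, 15 members were higher and 5 lower in E8-cSGcm, where 16.1% and 15.2% of all tested genes were. In E8-cDRGcm they numbered 19 and 9 (24.8% and 24.7% of all genes), and in E15.5-mSGcm 10 and 10 (17.8% and 20%). Most differences were therefore measurable and small. No member was called in all 3 media, 5 were called in 2 media, 7 in 1 and 25 in none. SLC16A3 was the 1 member called in opposite directions.

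**Figure D1:**
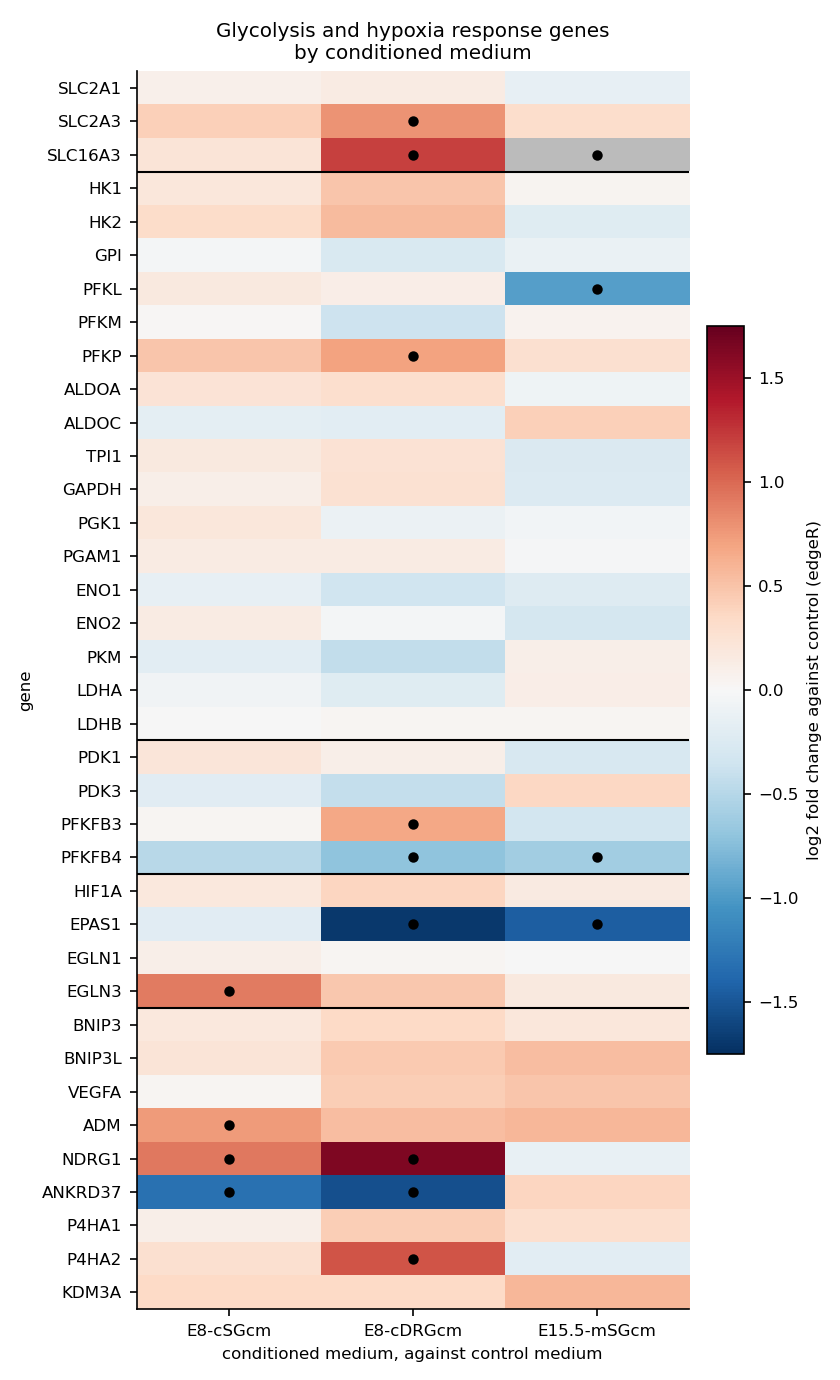
Log2 fold change of the 37 tested members (rows, ordered by role, with lines between roles) in each conditioned medium against control medium (columns). Dots mark called genes. The grey cell is SLC16A3 in E15.5-mSGcm, where both libraries had 0 reads and no fold change was drawn. NDRG1 has the darkest red cell, at 1.64 in E8-cDRGcm, and EPAS1 the darkest blue, at -1.69 in the same medium.

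Levels of the glycolytic enzymes ranged widely. TPM values divide the counts by transcript length before each library is scaled to 1000000, so that genes can be compared. In control medium, GAPDH reached 3600 ± 23.0 TPM (SD, n = 2), ENO1 2033 ± 21.3 and PKM 1244 ± 9.53. LDHA followed at 551 ± 8.39 TPM and TPI1 at 497 ± 7.52. Hexokinase HK1, the entry point of glucose into the pathway, had 250 ± 4.73 TPM and HIF1A 67.7 ± 1.79. Other enzymes were much lower, with PGAM1 at 24.74 ± 2.075 TPM, ALDOA at 24.2 ± 2.952, PFKL at 23.2 ± 1.267 and ALDOC at 12.85 ± 1.121. At the low end of the members, EPAS1 had 1.55 ± 0.189 TPM, PFKFB3 1.52 ± 0.201 and SLC16A3 0.603 ± 0.0568. CA9, a membrane carbonic anhydrase often used as a hypoxia marker, had 0 to 4 reads in a library, so a difference in it was not detectable at this depth. The 17 glycolytic enzymes together made up 7429 to 7475 CPM in control medium, 7417 to 7663 in E8-cSGcm, 7225 to 7663 in E8-cDRGcm and 6966 to 6986 in E15.5-mSGcm. The 3 control and chick groups overlapped in this sum, and the E15.5-mSGcm libraries lay below all others.

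Among the transporters, SLC2A1 (GLUT1), the broadly expressed glucose carrier, was not called in any medium, with log2 fold changes of -0.15 to 0.14. SLC2A3 (GLUT3), a high-affinity carrier typical of neurons, had 11.5 and 10.1 CPM in control medium, 14.5 and 14.3 in E8-cSGcm, 16.9 and 20.4 in E8-cDRGcm and 12.9 and 13.6 in E15.5-mSGcm. All 6 conditioned libraries lay above both controls, and the E8-cDRGcm pair was the highest. SLC2A3 was upregulated 1.73-fold in E8-cDRGcm (log2 0.79 ± 0.12 (SE), edgeR adjusted p = 1.19e-06). In E8-cSGcm its log2 difference of 0.42 ± 0.13 passed the adjusted p (0.011) without reaching 1.5-fold, and in E15.5-mSGcm 0.30 ± 0.14 did not pass (adjusted p = 0.0953).

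The lactate exporter SLC16A3 (MCT4), a HIF target in many tissues, was scarce, and its counts separated the media. It had 10 and 10 reads in control medium, 15 and 7 in E8-cSGcm, 23 and 21 in E8-cDRGcm, and 0 and 0 in E15.5-mSGcm. E8-cDRGcm libraries were the highest and E15.5-mSGcm libraries the lowest, with no overlap with control medium. In E15.5-mSGcm the level was at least 1.96-fold lower than in control medium, taking 3 counts per library as the limit (edgeR adjusted p = 0.0018). The rise in E8-cDRGcm, 2.28-fold (log2 1.19 ± 0.44, adjusted p = 0.0245), rested on these few reads. It was lost when any one of control 1, control 2, E8-cDRGcm 1 or E8-cDRGcm 2 was left out (adjusted p of 0.0663 to 0.137) and with DESeq2 (adjusted p = 0.249). SLC16A3 shares 482 exonic bases with CSNK1D on the opposite strand, a gene of 105 to 134 CPM that was not called in any medium. CSNK1D was at 0.06 ± 0.06 in E8-cSGcm and 0.04 ± 0.06 in E15.5-mSGcm. In E8-cDRGcm its 0.22 ± 0.06 passed the adjusted p alone (edgeR, 0.002415). The part of this overlap in the counts of SLC16A3 was not tested. SLC16A1 (MCT1), the other lactate carrier, was listed at 0 in all 8 libraries, which allows up to 3 reads in each. The neighbouring genes LRIG2 (280 to 494 reads) and CAPZA1 (585 to 1144 reads) were well covered. Others nearby had few reads, with SLC16A1-AS1 at 0 to 2, TAFA3 at 0 to 1 and PPM1J at 0 to 17. The cause of the 0 of SLC16A1 was not tested.

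None of the enzymes of the first steps was called in E8-cSGcm. Over the 17 glycolytic enzymes edgeR called 0 either way in that medium, with 7 higher and 2 lower at an unadjusted p under 0.05, and DESeq2 called 0. The hexokinases HK1 and HK2, which phosphorylate glucose, passed the adjusted p in both chick media. HK1 had log2 differences of 0.20 ± 0.05 in E8-cSGcm and 0.48 ± 0.05 in E8-cDRGcm. HK2, the form most often raised in tumors, had 0.33 ± 0.06 and 0.56 ± 0.06, the second just under 1.5-fold (edgeR adjusted p = 2.95e-10). In E15.5-mSGcm, HK2 was at -0.21 ± 0.06 (adjusted p = 0.00959) and HK1 at 0.05 ± 0.05 (adjusted p = 0.471). GPI, the isomerase that follows, stayed between -0.26 and -0.03.

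Phosphofructokinase, which commits the sugar to glycolysis, has 3 forms among the members. PFKP, the platelet type, had 223 and 219 CPM in control medium, 308 and 310 in E8-cSGcm, 356 and 364 in E8-cDRGcm and 263 and 274 in E15.5-mSGcm. All conditioned libraries were above both controls. It was upregulated 1.63-fold in E8-cDRGcm (log2 0.70 ± 0.05, edgeR adjusted p = 5.51e-15), while 0.49 ± 0.05 in E8-cSGcm and 0.28 ± 0.05 in E15.5-mSGcm passed the adjusted p alone. PFKL, the liver type, had 29.7 and 31.5 CPM in control medium, 33.7 and 35.4 in E8-cSGcm, 31.5 and 34.8 in E8-cDRGcm, and 16.9 and 14.5 in E15.5-mSGcm. Both E15.5-mSGcm libraries lay well below the other 6. PFKL fell 1.96-fold there (log2 -0.97 ± 0.11, adjusted p = 5.21e-09) and was called in no chick medium. PFKM, the muscle type, was not called, with -0.36 ± 0.06 in E8-cDRGcm (adjusted p = 9.95e-07) as its largest difference.

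As a share of the TPM of all 3 phosphofructokinases, PFKP held 63.4% ± 0.544 (SD, n = 2) in control medium, 70.0% ± 0.12 in E8-cSGcm, 77.0% ± 0.324 in E8-cDRGcm and 69.4% ± 1.05 in E15.5-mSGcm. PFKM held 28.7% ± 0.157, 22.9% ± 0.351, 16.6% ± 0.697 and 26.9% ± 0.594 in the same order. PFKL held 7.93% ± 0.387, 7.06% ± 0.231, 6.41% ± 0.373 and 3.67% ± 0.452. These shares are a description with no test. In the other enzyme pairs the leading form kept its place in every group: HK1 held 87.3% to 90.0% of hexokinase, ENO1 90.9% to 92.9% of enolase and LDHA 93.2% to 94.5% of lactate dehydrogenase. The last share is uncertain, since pseudogene rows of LDHB held counts equal to 54.7% of its own.

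**Figure D2:**
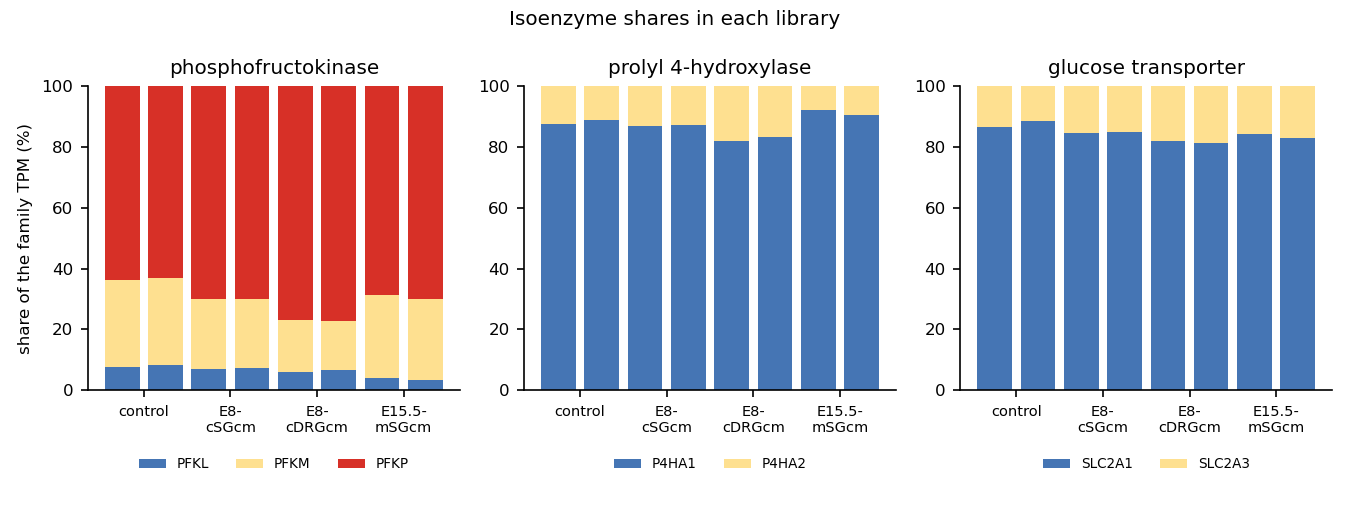
Share of each form in the summed TPM of its family (vertical axis, percent) in each of the 8 libraries (bars, 2 per group) for phosphofructokinase, prolyl 4-hydroxylase and the 2 glucose transporters. The PFKP segment is the largest in E8-cDRGcm and the PFKL segment the smallest in E15.5-mSGcm. P4HA2 and SLC2A3 take their largest shares in E8-cDRGcm.

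PFKP in E8-cDRGcm and PFKL in E15.5-mSGcm were the only glycolytic enzymes called against control medium. From aldolase to lactate dehydrogenase the differences were small and ran both ways. GAPDH was at 0.27 ± 0.05 in E8-cDRGcm and -0.24 ± 0.05 in E15.5-mSGcm, and TPI1 at 0.25 ± 0.05 and -0.26 ± 0.05, all passing the adjusted p. ENO1, which makes phosphoenolpyruvate, was lower in all 3 media by adjusted p, at -0.14 ± 0.05, -0.35 ± 0.05 and -0.22 ± 0.05. PKM, the pyruvate kinase, was at -0.19 ± 0.05 in E8-cSGcm and -0.43 ± 0.05 in E8-cDRGcm, with edgeR adjusted p = 0.00192 and 8.8e-10. In E15.5-mSGcm, PKM had 0.10 ± 0.05 (adjusted p = 0.0972). LDHA, which turns pyruvate into lactate and is a classical HIF target, was at -0.06 ± 0.05, -0.21 ± 0.05 and 0.11 ± 0.05. LDHB stayed within -0.01 to 0.04. PGK1, another HIF target, had 0.20 ± 0.05 in E8-cSGcm and -0.10 ± 0.05 in E8-cDRGcm. ALDOC, the brain form of aldolase, had 0.42 ± 0.16 in E15.5-mSGcm (adjusted p = 0.0333), and ENO2, the neuronal enolase, -0.30 ± 0.05 (adjusted p = 2.75e-05). GAPDH, TPI1 and LDHB have processed pseudogenes that could share reads with them.

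The 4 flux regulators split by enzyme. PFKFB3 and PFKFB4 make and break the sugar bisphosphate that activates phosphofructokinase, and both are hypoxia-inducible. PFKFB3 had 2.83 and 3.35 CPM in control medium, 3.29 and 3.08 in E8-cSGcm, 4.64 and 5.27 in E8-cDRGcm, and 2.43 and 2.51 in E15.5-mSGcm. The E8-cDRGcm pair was above all other libraries. PFKFB3 was upregulated 1.59-fold in E8-cDRGcm (log2 0.67 ± 0.22, edgeR adjusted p = 0.0102). That call was lost without control 1 (0.56, adjusted p = 0.0875), without E8-cDRGcm 2 (0.58, adjusted p = 0.0968) and with DESeq2 (adjusted p = 0.147).

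PFKFB4 had 15.1 and 16.4 CPM in control medium, 10.5 and 11.97 in E8-cSGcm, 9.12 and 10.3 in E8-cDRGcm, and 8.07 and 12.3 in E15.5-mSGcm. Every conditioned library was below both controls, and the 2 E15.5-mSGcm libraries were far apart. It was downregulated 1.62-fold in E8-cDRGcm (log2 -0.70 ± 0.14, edgeR adjusted p = 6.85e-05) and 1.53-fold in E15.5-mSGcm (-0.61 ± 0.15, adjusted p = 0.00168). In E8-cSGcm, -0.48 ± 0.14 passed the adjusted p only (0.00597). The E15.5-mSGcm call was lost without E15.5-mSGcm 1 (-0.36, adjusted p = 0.119), fell under 1.5-fold without control 2 (-0.56) and did so after a correction for GC content and transcript length (-0.51). PDK1 and PDK3, kinases that shut the pyruvate dehydrogenase gate to the mitochondrion, were not called against control medium. PDK1 had 0.21 ± 0.08 in E8-cSGcm and -0.28 ± 0.09 in E15.5-mSGcm. PDK3 went the other way, at -0.20 ± 0.06 in E8-cSGcm, -0.41 ± 0.06 in E8-cDRGcm and 0.37 ± 0.06 in E15.5-mSGcm, all passing the adjusted p.

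HIF binds DNA at the cores ACGTG and GCGTG. Both were searched on both strands in the RefSeq promoter windows of GRCh38.p14, which run from 250 bases before to 50 bases after a transcript start, with overlapping matches counted once. Windows were matched by symbol for 34 of the 39 members (not SLC2A3, SLC16A1, BNIP3L, VEGFA and NDRG1). Of 62 member windows, 42 (67.7%) held a match, beside 17012 of all 35116 windows (48.4%). By gene, 31 of 34 members held a match in at least 1 window, beside 14318 of 27305 genes (52.4%); genes with more windows have more chances of a match. The 3 members without a match were EGLN3, P4HA2 and PGAM1. Printed here are the windows of the called flux regulators, HIF genes and HIF targets that had a single window, so that the cores can be read beside the values of these genes below. They lie at chr4:185396591-185396890 (ANKRD37, plus strand), chr14:33951025-33951324 (EGLN3, minus strand), chr11:10304823-10305122 (ADM, plus strand), chr5:132227042-132227341 (P4HA2, minus strand), chr3:48556754-48557053 (PFKFB4, minus strand) and chr2:46297157-46297456 (EPAS1, plus strand). Each is written 5′ to 3′ along its gene, with the cores in capitals.
ANKRD37: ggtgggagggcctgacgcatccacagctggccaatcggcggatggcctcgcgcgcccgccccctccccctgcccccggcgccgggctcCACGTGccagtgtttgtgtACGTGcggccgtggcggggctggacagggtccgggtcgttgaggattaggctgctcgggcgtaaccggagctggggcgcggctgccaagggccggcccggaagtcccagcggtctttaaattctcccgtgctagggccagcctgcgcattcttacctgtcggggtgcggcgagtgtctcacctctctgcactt
EGLN3: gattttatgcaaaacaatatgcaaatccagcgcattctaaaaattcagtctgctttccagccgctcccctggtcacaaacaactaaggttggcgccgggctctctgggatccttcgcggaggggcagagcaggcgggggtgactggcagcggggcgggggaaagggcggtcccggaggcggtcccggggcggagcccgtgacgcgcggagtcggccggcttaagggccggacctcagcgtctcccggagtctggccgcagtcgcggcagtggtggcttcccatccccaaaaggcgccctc
ADM: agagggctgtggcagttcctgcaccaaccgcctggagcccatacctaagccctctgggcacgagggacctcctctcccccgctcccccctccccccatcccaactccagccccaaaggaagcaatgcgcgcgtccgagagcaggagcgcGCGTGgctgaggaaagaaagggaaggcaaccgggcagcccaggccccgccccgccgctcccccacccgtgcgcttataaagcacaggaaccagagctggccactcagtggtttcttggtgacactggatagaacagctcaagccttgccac
P4HA2: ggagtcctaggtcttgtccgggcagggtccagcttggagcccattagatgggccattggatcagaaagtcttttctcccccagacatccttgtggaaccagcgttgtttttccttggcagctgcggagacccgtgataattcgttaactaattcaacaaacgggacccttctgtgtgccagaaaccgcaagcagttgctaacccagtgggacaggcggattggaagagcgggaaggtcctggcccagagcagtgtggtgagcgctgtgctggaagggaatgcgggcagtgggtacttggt
PFKFB4: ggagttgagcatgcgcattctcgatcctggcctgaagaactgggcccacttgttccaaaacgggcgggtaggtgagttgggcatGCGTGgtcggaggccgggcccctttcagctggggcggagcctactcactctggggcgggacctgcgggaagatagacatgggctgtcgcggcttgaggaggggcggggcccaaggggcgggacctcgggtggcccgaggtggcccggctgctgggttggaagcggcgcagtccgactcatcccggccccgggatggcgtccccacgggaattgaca
EPAS1: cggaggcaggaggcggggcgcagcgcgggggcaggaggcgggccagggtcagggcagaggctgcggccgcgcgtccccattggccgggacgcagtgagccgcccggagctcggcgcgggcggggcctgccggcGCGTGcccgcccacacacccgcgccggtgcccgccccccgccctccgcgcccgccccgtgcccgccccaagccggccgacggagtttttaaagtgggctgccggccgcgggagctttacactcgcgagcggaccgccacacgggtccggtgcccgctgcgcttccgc
ANKRD37 had 2 separate matches, ADM, PFKFB4 and EPAS1 1 each, and EGLN3 and P4HA2 0. Against control medium ANKRD37, PFKFB4 and EPAS1 were called lower and ADM, EGLN3 and P4HA2 higher. A match is a description of these letters only, and its absence speaks for this window alone.

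Of the HIF genes, HIF1A was by far the more abundant alpha subunit, with 97.8% to 99.5% of the summed TPM of HIF1A and EPAS1 in the 4 groups. HIF1A was not called. Its log2 differences of 0.19 ± 0.06 in E8-cSGcm, 0.37 ± 0.06 in E8-cDRGcm and 0.16 ± 0.06 in E15.5-mSGcm passed the adjusted p. EPAS1, whose promoter holds 1 core, had 3.98 and 3.29 CPM in control medium, 3.53 and 2.80 in E8-cSGcm, 0.748 and 1.47 in E8-cDRGcm, and 1.15 and 1.49 in E15.5-mSGcm. The E8-cSGcm libraries overlapped control medium, and the 4 libraries of the other media lay below. EPAS1 was downregulated 3.24-fold in E8-cDRGcm (log2 -1.69 ± 0.31, edgeR adjusted p = 2.19e-05) and 2.71-fold in E15.5-mSGcm (-1.44 ± 0.34, adjusted p = 0.000994), and was at -0.20 ± 0.26 in E8-cSGcm (adjusted p = 0.607). These values rest on 9 to 52 reads per library. In bulk RNA, fewer cells expressing a gene and less RNA per cell cannot be told apart.

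EGLN1 (PHD2), the main oxygen sensor of the hydroxylases, stayed within -0.01 to 0.10. EGLN3 (PHD3), itself a HIF target and so part of a feedback loop, had 7.57 and 9.21 CPM in control medium, 15.9 and 15.8 in E8-cSGcm, 10.9 and 12.4 in E8-cDRGcm, and 10.5 and 8.57 in E15.5-mSGcm. The E8-cSGcm pair was the highest, and E15.5-mSGcm overlapped control medium. EGLN3 was upregulated 1.87-fold in E8-cSGcm (log2 0.91 ± 0.14, edgeR adjusted p = 1.93e-06). In E8-cDRGcm, 0.47 ± 0.14 passed the adjusted p (0.00666) and not the fold limit, and in E15.5-mSGcm 0.17 ± 0.17 passed neither.

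Of the 10 other HIF targets, NDRG1, P4HA2, ANKRD37 and ADM were called against control medium, each in a chick medium. The summed CPM of all 10, called or not, was 333 to 336 in control medium, 380 to 394 in E8-cSGcm, 451 to 466 in E8-cDRGcm and 444 to 446 in E15.5-mSGcm. All 6 conditioned libraries exceeded both controls in this sum, which has no test. NDRG1, a stress-induced differentiation gene, had 3.75 and 2.30 CPM in control medium, 6.33 and 5.04 in E8-cSGcm, 7.93 and 10.6 in E8-cDRGcm, and 2.43 and 2.97 in E15.5-mSGcm. Both chick media were above control medium, and E15.5-mSGcm overlapped it. NDRG1 rose 3.11-fold in E8-cDRGcm (log2 1.64 ± 0.21, edgeR adjusted p = 4.38e-08) and 1.9-fold in E8-cSGcm (0.92 ± 0.23, adjusted p = 0.00219). In E15.5-mSGcm it was at -0.13 ± 0.30 (adjusted p = 0.773). The E8-cSGcm call was lost without control 2, the lower of the controls (0.59, adjusted p = 0.121).

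P4HA2, a collagen prolyl hydroxylase, had 14.6 and 14.1 CPM in control medium, 16.6 and 18.2 in E8-cSGcm, 32.9 and 28.4 in E8-cDRGcm, and 10.9 and 14.1 in E15.5-mSGcm. The E8-cDRGcm libraries stood clear of all others. P4HA2 was upregulated 2.14-fold there (edgeR adjusted p = 8.02e-11), with 0.28 ± 0.12 in E8-cSGcm (adjusted p = 0.0648) and -0.19 ± 0.14 in E15.5-mSGcm (adjusted p = 0.3). Its sister enzyme P4HA1 was the more abundant, and its 0.43 ± 0.07 in E8-cDRGcm and 0.29 ± 0.07 in E15.5-mSGcm passed the adjusted p alone. The share of P4HA2 in their summed TPM was 11.8% ± 0.814 (SD, n = 2) in control medium, 13.1% ± 0.208 in E8-cSGcm, 17.4% ± 1.1 in E8-cDRGcm and 8.6% ± 1.18 in E15.5-mSGcm.

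ANKRD37, a small ankyrin-repeat gene that responds strongly to HIF, moved opposite to NDRG1 in the chick media. It had 30 and 44 reads (2.29 and 2.89 CPM) in control medium, 13 and 15 (1.04 and 1.05 CPM) in E8-cSGcm, 13 and 11 (0.972 and 0.806 CPM) in E8-cDRGcm, and 27 and 29 (3.46 and 3.31 CPM) in E15.5-mSGcm. All 4 chick libraries were below control medium and both mouse libraries above it. ANKRD37 was downregulated 2.48-fold in E8-cSGcm (log2 -1.31 ± 0.33, edgeR adjusted p = 0.00203) and 2.92-fold in E8-cDRGcm (-1.54 ± 0.34, adjusted p = 0.000236), and was not called in E15.5-mSGcm (0.37 ± 0.29, adjusted p = 0.329). Of its 2253 exonic bases, 909 overlap UFSP2 on the opposite strand. UFSP2 itself had 23.8 to 25.5 CPM in all 8 libraries, with log2 differences of -0.01 to 0.02. The strand setting of the counting is not given in the sources used here, so reads of the overlapping bases may not be told apart.

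ADM, which encodes the vasodilator peptide adrenomedullin, had 3.90 and 4.14 CPM in control medium, 6.33 and 7.14 in E8-cSGcm, 6.28 and 5.49 in E8-cDRGcm, and 5.00 and 6.97 in E15.5-mSGcm. All conditioned libraries exceeded both controls. ADM was upregulated 1.68-fold in E8-cSGcm (log2 0.74 ± 0.20, edgeR adjusted p = 0.00316). The call was lost with DESeq2 (adjusted p = 0.0617) and after thinning every library to the smallest (0.50, adjusted p = 0.122). In E8-cDRGcm (0.55 ± 0.20) and E15.5-mSGcm (0.58 ± 0.22) ADM passed the adjusted p and stayed under 1.5-fold. KDM3A, a histone demethylase, came as close in E15.5-mSGcm, at 0.58 ± 0.07 (adjusted p = 7.54e-09). In E8-cSGcm and in E8-cDRGcm, KDM3A had 0.35 ± 0.07, also by adjusted p alone. VEGFA, the endothelial growth factor, was at 0.43 ± 0.07 in E8-cDRGcm and 0.48 ± 0.08 in E15.5-mSGcm, and at 0.03 ± 0.08 in E8-cSGcm. The mitophagy receptors BNIP3 and BNIP3L passed the adjusted p alone in all 3 media. In the order E8-cSGcm, E8-cDRGcm and E15.5-mSGcm, BNIP3 had 0.18 ± 0.07, 0.35 ± 0.06 and 0.20 ± 0.07. BNIP3L had 0.23 ± 0.06, 0.45 ± 0.06 and 0.55 ± 0.06. Reads of BNIP3 could be split with its 44 pseudogene rows.

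Direct tests between media showed where the responses differed. By adjusted p alone, 13 members were higher and 10 lower in E8-cDRGcm than in E8-cSGcm, beside 30.2% of all tested genes in either direction. For E15.5-mSGcm the counts were 9 and 16 against E8-cSGcm (49.8% of all genes) and 9 and 16 against E8-cDRGcm (52.6%). Against E8-cSGcm, E8-cDRGcm had 3 members higher (8.11%, against 2.62% of all tested genes) and 1 lower (2.7% against 4.87%). The 3 higher were P4HA2 (log2 0.81 ± 0.11, edgeR adjusted p = 1.66e-07), NDRG1 (0.71 ± 0.19, adjusted p = 0.0039) and PFKFB3 (0.64 ± 0.22, adjusted p = 0.0247). EPAS1 was the 1 lower (-1.50 ± 0.32, adjusted p = 0.000441). With DESeq2, NDRG1 (adjusted p = 0.0978) and PFKFB3 (adjusted p = 0.216) were lost, which left 1 member higher. The count was also 1 without E8-cSGcm 2 or without E8-cDRGcm 2. NDRG1 was also lost without E8-cSGcm 2 (0.55, adjusted p = 0.0893) or E8-cDRGcm 2 (0.49, adjusted p = 0.152). PFKFB3 was lost without E8-cSGcm 1, E8-cSGcm 2 or E8-cDRGcm 2 (adjusted p of 0.0631 to 0.172). The fall of ANKRD37 did not differ detectably between the chick media (-0.23 ± 0.41, 95% interval -1.07 to 0.60), an interval too wide to show equal responses. ADM and EGLN3 were not called in E8-cDRGcm against E8-cSGcm. ADM was at -0.20 ± 0.18 (edgeR adjusted p = 0.456). EGLN3, at -0.44 ± 0.13, passed the adjusted p (0.0086) and not the fold limit.

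E15.5-mSGcm and E8-cSGcm both come from sympathetic ganglia. Against E8-cSGcm, E15.5-mSGcm had 2 members higher (5.41%, against 10.2% of all tested genes) and 5 lower (13.5% against 12.1%). ANKRD37 was higher (log2 1.68 ± 0.34, edgeR adjusted p = 9.06e-05), as was ALDOC at 1.5-fold (0.59 ± 0.16, adjusted p = 0.00251). Lower were PFKL (-1.14 ± 0.11), NDRG1 (-1.055 ± 0.27), EPAS1 (-1.24 ± 0.35), EGLN3 (-0.74 ± 0.15) and SLC16A3, the last at least 2.33-fold (adjusted p of 4.25e-11 to 0.00373). EPAS1 was lost with DESeq2 (adjusted p = 0.0504). Libraries of ALDOC had 8.82 and 7.91 CPM in E8-cSGcm and 10.8 and 14.2 in E15.5-mSGcm, and without E15.5-mSGcm 2 the difference was 0.36 (adjusted p = 0.174). It sat so close to 1.5-fold that leaving out control 1, control 2, E8-cSGcm 2 or E8-cDRGcm 2 also took it under the limit (0.50 to 0.58).

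Against E8-cDRGcm, E15.5-mSGcm had 3 members higher (8.11%, against 13.1% of all tested genes) and 6 lower (16.2% against 13.1%). The higher were ANKRD37 (log2 1.92 ± 0.35, edgeR adjusted p = 1.8e-05), PDK3 (0.78 ± 0.07, adjusted p = 1.02e-12) and ALDOC (0.60 ± 0.16, adjusted p = 0.00196). The 6 lower were NDRG1 (-1.77 ± 0.25), P4HA2 (-1.29 ± 0.12), PFKL (-1.08 ± 0.11), PFKFB3 (-0.999 ± 0.26), HK2 (-0.77 ± 0.06) and SLC16A3, at least 4.48-fold. PDK3 had 62.5 and 65.5 CPM in E8-cDRGcm and 106 and 114 in E15.5-mSGcm, beside 83.3 and 86.7 in control medium. HK2 had 128 and 123 CPM in E8-cDRGcm and 72.1 and 75.1 in E15.5-mSGcm, beside 85.4 and 85.0 in control medium. For both genes the control libraries lay between the media, and neither was called against control medium. ALDOC was lost without E15.5-mSGcm 2 (0.37, adjusted p = 0.154) and fell under 1.5-fold without E8-cSGcm 1 (0.585) or E8-cDRGcm 2 (0.584).

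**Figure D3:**
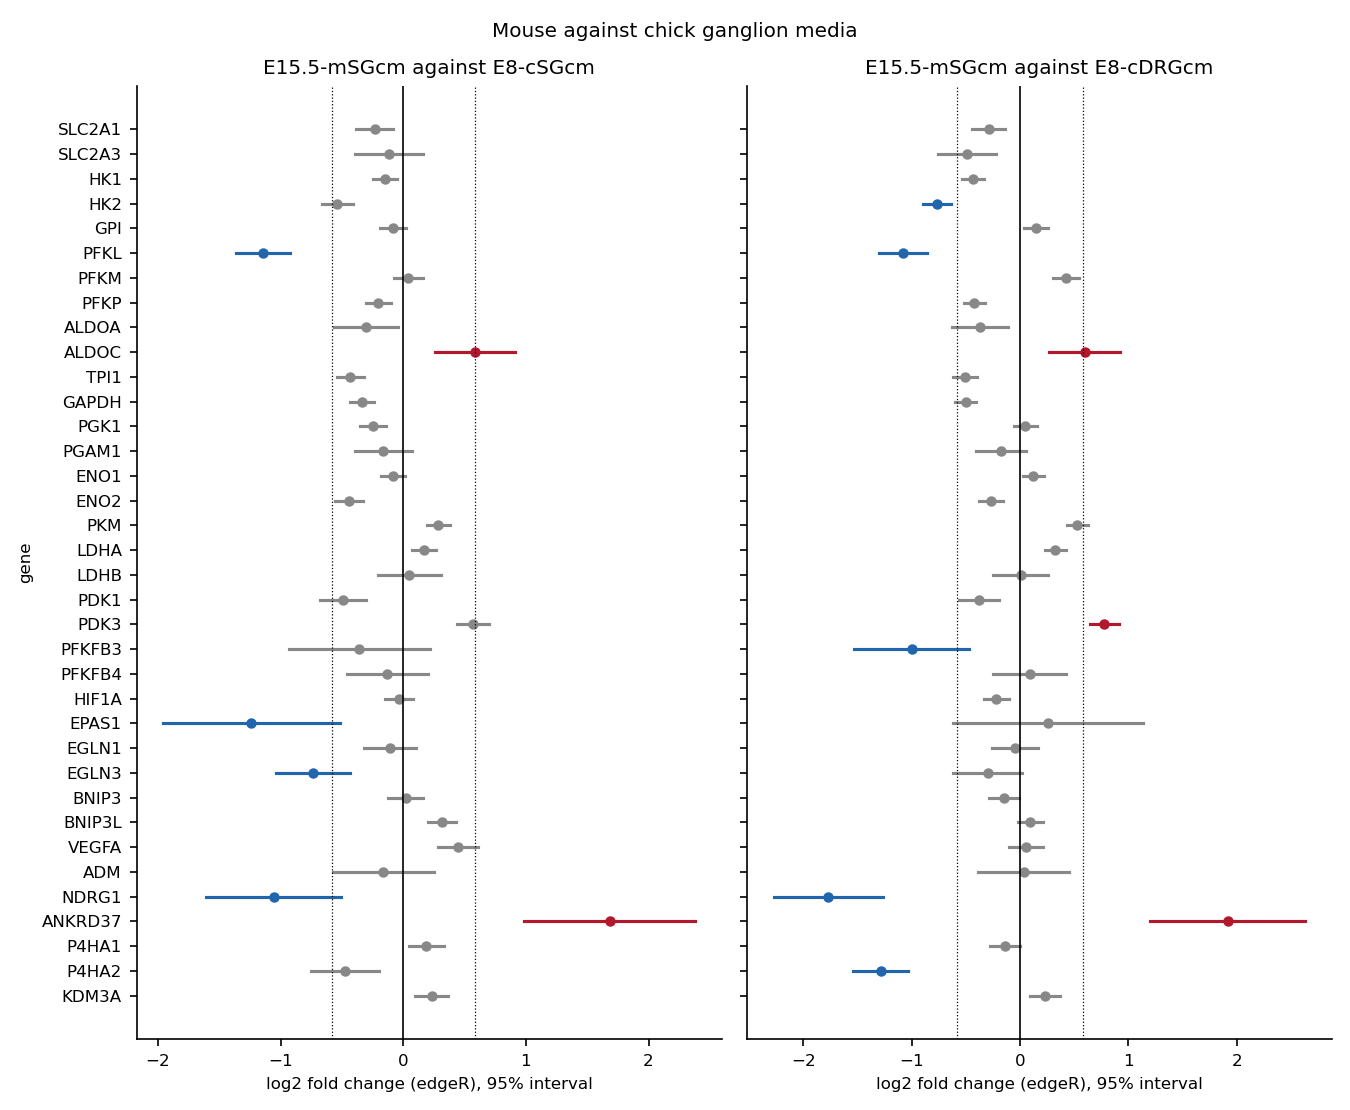
Log2 fold change with its 95% interval (edgeR) of 36 tested members in E15.5-mSGcm against E8-cSGcm (left) and against E8-cDRGcm (right), without SLC16A3, which had 0 reads in E15.5-mSGcm. Red marks called higher, blue called lower and grey not called, and dotted lines stand at 1.5-fold. ANKRD37 lies farthest to the right in both panels. EPAS1 lies farthest to the left against E8-cSGcm, and NDRG1 against E8-cDRGcm.

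The remaining genes of the pathways were read from lists that hold no member. PYGL, the liver glycogen phosphorylase, was upregulated in both chick media (1.25 ± 0.16 and 1.80 ± 0.15) and downregulated in E15.5-mSGcm (-1.10 ± 0.26). Of all tested genes, 4.73%, 9.81% and 6.65% were higher and 3.86%, 10.9% and 7.27% lower in E8-cSGcm, E8-cDRGcm and E15.5-mSGcm. In that order, 1, 1 and 0 of 8 glycogen genes were higher (12.5%, 12.5% and 0%). Lower were 0, 0 and 2 (0%, 0% and 25%). In lists this short, 1 gene makes a large share. Among 16 genes of the tricarboxylic acid cycle, edgeR and DESeq2 called 0 in any medium against control medium. At an unadjusted p under 0.05, 4 of these were higher and 2 lower in E8-cSGcm, 8 and 3 in E8-cDRGcm, and 2 and 4 in E15.5-mSGcm.

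Around pyruvate, 14 of 16 genes were tested. In the same order, 1, 2 and 0 were higher (7.14%, 14.3% and 0%, against 4.73%, 9.81% and 6.65% of all tested genes). Lower were 0, 1 and 0 (0%, 7.14% and 0%, against 3.86%, 10.9% and 7.27%). PDK4, the starvation-induced form of pyruvate dehydrogenase kinase, rose in both chick media (1.17 ± 0.40 and 1.30 ± 0.39, edgeR adjusted p = 0.0237 and 0.00591) from 11 and 10 reads in control medium to 22 to 28. With DESeq2, 0 of the 14 were higher in E8-cSGcm, so the call of PDK4 was lost there, and 1 was higher in E8-cDRGcm. PDK2 fell in E8-cDRGcm (-0.94 ± 0.10). Of 11 tested isoforms outside the members, 1 was higher in E8-cSGcm (9.09%, against 4.73% of all tested genes). This was SLC2A12 (1.57 ± 0.52), on 7 and 6 reads in control medium and 21 and 16 in E8-cSGcm. SLC2A8 was the 1 lower in E8-cDRGcm (-0.60 ± 0.16, 9.09% of the list against 10.9%). DESeq2 called neither. In E15.5-mSGcm 4 were lower (36.4% against 7.27%, and 3 with DESeq2), led by SLC2A4, the insulin-regulated carrier, at -1.89 ± 0.54 with 3 and 4 reads left. PFKFB2, of the same family as PFKFB3, was upregulated in E15.5-mSGcm (1.00 ± 0.22) and was the 1 called of 2 tested genes in its list, which also named TIGAR. Among 13 regulators of the HIF pathway, HIF3A was the 1 called, in E8-cDRGcm (0.97 ± 0.16, edgeR adjusted p = 5.56e-06). That is 7.69% of the list, against 9.81% of all tested genes.

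A list of 39 further hypoxia response genes, 36 of them tested, held calls in both directions. In E8-cSGcm 3 were higher and 1 lower (8.33% and 2.78%, against 4.73% and 3.86% of all tested genes). In E8-cDRGcm 8 were higher and 3 lower (22.2% and 8.33%, against 9.81% and 10.9%), and in E15.5-mSGcm 6 and 3 (16.7% and 8.33%, against 6.65% and 7.27%). With DESeq2, 1, 6 and 6 were higher and 1, 2 and 2 lower in the same order, so that in E8-cSGcm 1 of the 3 higher was left. The median log2 fold changes were 0.08, 0.19 and 0.07. CA12, a carbonic anhydrase related to CA9, had 21 and 20 reads in control medium, 45 and 41 in E8-cSGcm and 4 and 1 in E15.5-mSGcm, and was called in both directions (1.15 ± 0.31 and -2.23 ± 0.59). CXCR4, a chemokine receptor, was the 1 lower in E8-cSGcm (-1.28 ± 0.10). RORA, a nuclear receptor, was the highest in E8-cDRGcm (1.38 ± 0.15) and STC1, a secreted glycoprotein induced by hypoxia in many cells, the lowest (-2.21 ± 0.22, edgeR adjusted p = 1.06e-10). In E15.5-mSGcm, LOXL2, which crosslinks collagen, was the highest (2.02 ± 0.49), on 18 and 18 reads.

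Markers of other cells were read beside these values. The 7 fibroblast genes summed to 417 to 428 CPM in control medium, 435 to 448 in E8-cSGcm, 448 to 464 in E8-cDRGcm and 477 to 487 in E15.5-mSGcm, where 4 were called higher and 1 lower. DCN had 2.75 and 2.76 CPM in control medium and 13.7 and 13.5 in E15.5-mSGcm, and PDGFRA 1.07 and 0.526 against 8.58 and 11.1. COL1A2 and LUM were the other two called higher. COL1A1, the 1 lower, had 99.1 and 112.8 CPM in control medium and 31.9 and 28.4 in E15.5-mSGcm. Their part in the E15.5-mSGcm results was not tested. Of 6 Schwann and satellite cell genes, SOX10 and FABP7 were listed at 0 in all libraries, and the sum was 1.12 to 4.10 CPM. ERBB3, 1 of the 2 tested, was called higher in E8-cDRGcm (log2 1.765 ± 0.38) and in E15.5-mSGcm (1.719 ± 0.41). It had 12 and 9 reads in control medium, 26 and 43 in E8-cDRGcm and 16 and 25 in E15.5-mSGcm. That is 50% of the tested list, against 9.81% and 6.65% of all tested genes. Endothelial genes, with CDH5 at 0, summed to 0.146 to 1.61 CPM and immune genes, with CD3E at 0, to 0.14 to 1.15 CPM.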

How the data were processed

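RNA of 8 IGR-N91 libraries (2 per group, assigned by their titles) was made into stranded total RNA libraries (50 ng input) and sequenced as 75 bp single reads. The authors demultiplexed with bcl2fastq 2.17.1.14, trimmed with cutadapt 1.9.1, mapped with TopHat 2.1.0 and deposited raw counts per Ensembl gene from HTSeq 0.11.3, without normalization or a filter. The study's methods name hg19 and the submitters' processing notes hg38, and the strand option and annotation release are not given in the sources used here. Of 60676 rows, 58611 were matched to a symbol of GENCODE v44 (lifted to GRCh37), and 0 columns belonged to no sample.

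Counts were scaled by TMM and tested with edgeR 4.0.16 in R 4.3.3 (filterByExpr by group, robust quasi-likelihood fit of all 8 libraries, no covariate), with Benjamini-Hochberg adjustment over all tested genes. TPM used the length of the Ensembl canonical transcript. A level of 0 was compared at a floor of 3 counts per library. Members called against control medium were given per library, and of each pathway list the highest and lowest called gene per medium was named. Some genes are not reported here. The members and lists were chosen with earlier results of these data known. UFSP2, CSNK1D, LRIG2, CAPZA1, SLC16A1-AS1, TAFA3 and PPM1J were named afterwards as overlapping or neighbouring genes. Alternatives were DESeq2 1.42.0, RLE size factors, 2 other count filters, only the libraries compared, the replicate number as a block, a correction for GC content and length, thinning to the smallest library, adjusted p alone and each library left out. The steps were tested on simulated data. Figures were drawn with matplotlib 3.10.9. No set test was run. Promoter windows came from RefSeq (GRCh38.p14).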

Additional observations from a re-analysis of the deposited data

How the results depend on the processing

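No result changed direction. With an adjusted p alone, 15 members were higher and 5 lower in E8-cSGcm (16.1% and 15.2% of all genes), 19 and 9 in E8-cDRGcm (24.8% and 24.7%), and 10 and 10 in E15.5-mSGcm (17.8% and 20%), all against control medium. Between media the counts by adjusted p alone were 13 and 10 for E8-cDRGcm against E8-cSGcm (30.2% of all genes in either direction), 9 and 16 for E15.5-mSGcm against E8-cSGcm (49.8%) and 9 and 16 for E15.5-mSGcm against E8-cDRGcm (52.6%). The count of 0 members higher in E15.5-mSGcm against control medium became 2 with RLE size factors, 2 with at least 10 counts in every library and 2 with only the libraries compared (ADM and KDM3A each time). It became 1 with the GC content and length correction (ADM), 1 with that correction and the replicate block (ADM) and 1 after thinning (KDM3A). Members higher in E8-cDRGcm against E8-cSGcm numbered 1 with DESeq2. Those higher in E15.5-mSGcm against E8-cSGcm numbered 1 with a filter at 1 count in total, 1 after thinning and 1 with the replicate block, where ALDOC was just under 1.5-fold. The filter at 10 counts in every library tested fewer genes and left 2 members lower in E15.5-mSGcm against control medium, 0 lower in E8-cDRGcm against E8-cSGcm and 3 lower in E15.5-mSGcm against E8-cSGcm.

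Leaving out each library in turn gave 2 to 3 members higher and 1 lower in E8-cSGcm, 4 to 6 higher and 3 lower in E8-cDRGcm, and 0 to 3 higher and 3 to 4 lower in E15.5-mSGcm. Between media the ranges were 1 to 3 higher and 1 lower for E8-cDRGcm against E8-cSGcm, 1 to 3 higher and 5 to 6 lower for E15.5-mSGcm against E8-cSGcm, and 2 to 3 higher and 6 to 7 lower for E15.5-mSGcm against E8-cDRGcm. In E8-cDRGcm against control medium, EGLN3 was added without control 2 (log2 0.62), and HK2 (0.59) and ADM (0.64) without E8-cDRGcm 2. HK2 was also added there with the GC content and length correction (0.59). Between media, SLC16A3 was added without E8-cSGcm 1 (E8-cDRGcm against E8-cSGcm, 1.71). In E15.5-mSGcm against E8-cSGcm, PDK3 was added without E8-cSGcm 1 (0.60) or E15.5-mSGcm 1 (0.61). HK2 (-0.60, without E8-cSGcm 2) and P4HA2 (-0.69, without E15.5-mSGcm 2) were added there too. In E15.5-mSGcm against E8-cDRGcm, SLC2A3 was added without E8-cDRGcm 1 (-0.61). Of the 37 single-gene calls, 31 were kept with DESeq2, 37 with RLE size factors, 36 with the replicate block and 36 with the GC content and length correction. Deviations of same-numbered libraries correlated at -0.0437 to 0.042. Such values, from 2 libraries a group, cannot decide whether same-numbered libraries share a culture or batch. The labels do not say so either, so the block is not a known pairing of samples. With 2 libraries a group and 0 to 52 reads per library, small changes of SLC16A3, EPAS1, ANKRD37 and CA9 were beyond the depth. A lone library of a group was assumed to vary like the other groups.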

Other observations

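Several members have processed pseudogenes or overlapping genes with counts of their own. Over all 8 libraries, 44 BNIP3 pseudogene rows held 4382 counts, equal to 69.0% of the 6348 counts of BNIP3. The same share was 54.7% for LDHB (3 rows), 42.8% for TPI1 (4 rows), 14.1% for GAPDH (65 rows), 10.3% for ALDOA (2 rows) and 7.93% for PGK1 (2 rows). Reads that fit a member and its pseudogene could have been lost or split, so the levels of these members are uncertain. ALDOA shares 1639 of its 3829 exonic bases with a second protein-coding model on the same strand, EGLN1 3004 of 5381 and LDHB 997 of 2983, and those models held 95, 15 and 7 counts. Partners with more reads overlapped by fewer bases: BNIP3L (10883 counts) shares 330 exonic bases with PNMA2 on the opposite strand (20601 counts), PFKM (11001 counts) 516 with SENP1 on the opposite strand (4932 counts) and PGK1 (26683 counts) 97 with a protein-coding gene on the same strand (21942 counts). The part of these overlaps in the members' levels was not tested.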
